A study of Mus musculus with 48 samples.

Results

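*Nrgn*, *Tcf7l2*, *Sst*, *Grm5*, *Camk2a*, *Prkcd*, *Ntng1* and *Th* are 8 genes grouped here as genes of neurons in brain regions near the cerebellum. The grouping does not hold equally for all. Over the 24 cerebellum libraries *Prkcd*, *Ntng1* and *Th* followed the other genes little (r of -0.0127, 0.104 and 0.215). *Prkcd* was at 21.8 to 39.5 FPKM throughout the cerebellum libraries. The 8 were picked by symbol from the 23731 gene symbols listed in the 8 tables, after their cerebellum values had been seen. Each had a single entry in every table, and all 8 passed the filter for testing, a group mean of 0.5 FPKM or more in WT and in mutant mice, in every table. FPKM is the number of sequenced fragments scaled by transcript length and library size, so levels of different genes are compared per length. Because cerebellum values chose these genes, those values are described below without a test. Tests are given for the inferior olive and for genes outside the set, whose lists were chosen with earlier results of these data known.

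The libraries came from male mice of 2 models of spinocerebellar ataxia type 1 (SCA1), a disease caused by an expanded glutamine repeat in the protein ATXN1. Atxn1 154Q/2Q knock-in (KI) mice, on a C57BL/6J background, carry the expanded repeat in 1 copy of their own *Atxn1* gene under its own regulatory elements. ATXN1-82Q transgenic (Tg) mice, on an FVB/NJ background, express expanded human ATXN1 from the *Pcp2* promoter, which is active in Purkinje cells and not in the inferior olive. Cerebellum and inferior olive were taken at 5 and 12 weeks of age from mutants and from wild-type (WT) controls of the same strain, with 3 libraries per genotype, which gave 8 tables of 6 libraries. Nothing in the labels marks litters or dissection days, so the 3 libraries of a group measure the spread between mice together with the spread between dissections.

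The cerebellar cortex has few neuron types, chiefly Purkinje cells, granule cells and inhibitory interneurons, and it sits directly behind the midbrain colliculi and above the pons and medulla. Genes such as *Nrgn*, *Tcf7l2* and *Sst* are widely used in those regions and the thalamus or forebrain, but are weak in most cerebellar neurons, whereas *Camk2a* is also made by Purkinje cells. In a bulk dissection, the level of such a gene depends both on which cells were collected and on how much of its RNA each cell holds, and fewer cells of a type cannot be told apart from less RNA per cell.

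The 8 genes lie on 7 chromosomes. In mm10 the deposited loci of the KI cerebellum table at 12 weeks place *Nrgn* on chromosome 9 from 37544493 to 37552745, *Tcf7l2* on chromosome 19 from 55741804 to 55933658 and *Sst* on chromosome 16 from 23889573 to 23891262. *Grm5* lies on chromosome 7 from 87584168 to 88135379, and *Th* on the same chromosome from 142892776 to 142899966. *Camk2a* lies on chromosome 18 from 60925586 to 60988152, *Prkcd* on chromosome 14 from 30595352 to 30626208 and *Ntng1* on chromosome 3 from 109778336 to 110144035.

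The tissue labels matched 2 of the gene lists. A list of 7 Purkinje cell genes summed to 2141 to 3089 FPKM in the WT cerebellum libraries and to 176 to 242 FPKM in the WT inferior olive libraries. The 12 pons and medulla genes summed to 0.0997 to 12.8 FPKM in WT cerebellum and to 174 to 360 FPKM in WT inferior olive. The summed level of 4 inferior olive neuron genes did not separate the tissues. It was 45.0 to 57.8 FPKM in WT cerebellum and 40.5 to 57.9 FPKM in WT inferior olive. Of the 4, only *Cacna1g* passed the filter in every cerebellum table, while all 4 passed it in each inferior olive table. The sum therefore says little of the other genes of that list. The 8 tables were normalized separately by the authors, so a level in a table cannot be set against a level in another, and folds were taken within a table. The deepest library of a table held 1.13 to 1.97 times the fragments of the shallowest, as estimated from the lowest values. Each table was tested with limma after adding 0.1 FPKM and taking log2, p-values were adjusted over all genes of the table by the Benjamini-Hochberg method, and genes whose adjusted p was under 0.05 are named as called.

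In the KI cerebellum at 12 weeks, all 8 genes were lower in every KI library than in any WT library, and for 4 of them the gap was several-fold. *Nrgn*, which encodes neurogranin, a calmodulin-binding protein of forebrain-type excitatory neurons, was at 61.3, 40.2 and 55.8 FPKM in WT replicates 1 to 3 and at 3.58, 2.27 and 2.69 FPKM in KI replicates 1 to 3. It was 17.8-fold lower in KI mice, -4.16 on the log2 scale (SE 0.193). *Tcf7l2*, a Wnt pathway transcription factor that marks thalamic and midbrain neurons, was at 18.2, 11.3 and 15.7 FPKM in WT and at 1.56, 1.47 and 1.73 FPKM in KI libraries, 8.85-fold lower. *Sst* encodes the neuropeptide somatostatin and was at 48.8, 20.3 and 30.1 FPKM in WT and at 3.25, 2.43 and 4.03 FPKM in KI libraries, 9.50-fold lower. *Grm5* encodes the metabotropic glutamate receptor mGluR5, and was at 8.44, 4.29 and 5.59 FPKM in WT and at 1.84, 1.81 and 1.95 FPKM in KI libraries, 3.04-fold lower. In all 4 WT replicate 1 was the highest library while WT replicate 2 was the lowest of the WT libraries.

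The other 4 genes were lower in the same KI libraries by smaller steps. *Camk2a*, the alpha subunit of the synaptic kinase CaMKII, was at 36.6, 28.0 and 31.4 FPKM in WT and at 15.9, 17.1 and 15.3 FPKM in KI libraries, 1.97-fold lower. *Th* encodes tyrosine hydroxylase, the rate-limiting enzyme of catecholamine synthesis, and was at 5.29, 4.52 and 4.31 FPKM in WT and at 2.24, 1.95 and 2.36 FPKM in KI libraries, 2.104-fold lower. *Ntng1*, which encodes the axonal adhesion protein netrin-G1, was at 7.89, 6.50 and 7.37 FPKM in WT and at 4.79, 4.75 and 5.29 FPKM in KI libraries, 1.46-fold lower. *Prkcd*, the delta isoform of protein kinase C and a marker of many thalamic neurons, was at 25.0, 24.8 and 25.2 FPKM in WT and at 21.8, 22.6 and 22.003 FPKM in KI libraries. The *Prkcd* difference of 1.13-fold was the smallest of the 8, and its libraries were also the most alike within a genotype.

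All 8 had genotypes that did not overlap, as did 32.1% of the 13284 genes tested in this table. The count describes the values that chose the genes, and nothing is read from it. Leaving out a single library gave log2 fold changes from -4.34 to -4.01 for *Nrgn*, from -3.34 to -3.00 for *Tcf7l2*, from -3.55 to -2.92 for *Sst* and from -1.83 to -1.35 for *Grm5*. For *Th* they ran from -1.13 to -0.99, for *Camk2a* from -1.07 to -0.88, for *Ntng1* from -0.62 to -0.48 and for *Prkcd* from -0.19 to -0.17.

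**Figure D1:**
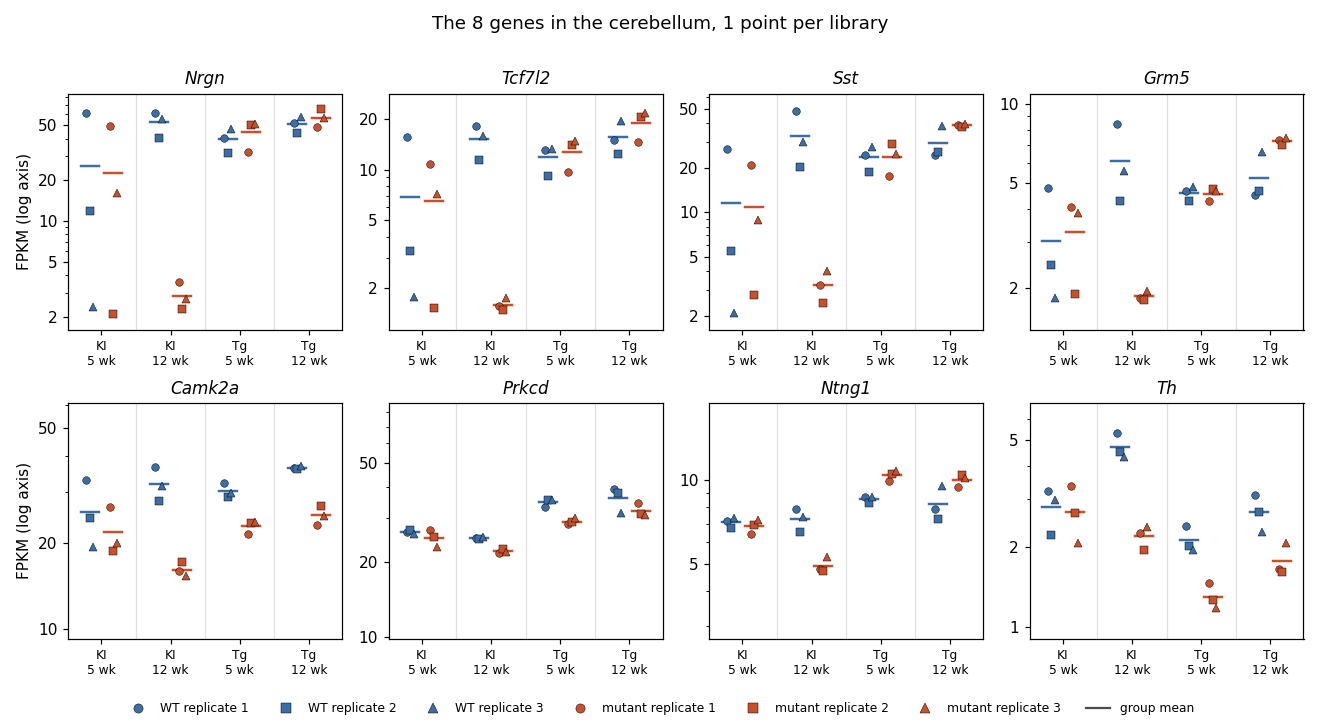
FPKM of the 8 genes in the 24 cerebellum libraries on log axes, with 1 panel per gene, the 4 tables along the x axis, WT in blue, mutants in orange, marker shapes for replicates 1 to 3 and bars at group means. *Nrgn*, *Tcf7l2*, *Sst* and *Grm5* spread widely within both genotypes of the KI table at 5 weeks and split by genotype in the KI table at 12 weeks, while in the Tg tables *Camk2a* and *Th* are the genes lower in mutants at both ages.

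At 5 weeks *Nrgn*, *Tcf7l2* and *Sst* varied several-fold between libraries of the same genotype in the KI cerebellum, and *Grm5* varied less. *Nrgn* was at 61.1, 11.9 and 2.35 FPKM in WT replicates 1 to 3 and at 49.7, 2.09 and 16.0 FPKM in KI replicates 1 to 3, a 29.2-fold range over 6 libraries. *Tcf7l2* was at 15.6, 3.31 and 1.75 FPKM in WT and at 10.8, 1.51 and 7.18 FPKM in KI libraries. *Sst* was at 26.9, 5.51 and 2.102 FPKM in WT and at 20.8, 2.77 and 8.88 FPKM in KI libraries. WT replicate 1 was the highest and KI replicate 1 the second highest library for all 3 genes, and WT replicate 3 and KI replicate 2 were the lowest pair. *Grm5* kept that order with a smaller range, at 4.81, 2.45 and 1.84 FPKM in WT and 4.06, 1.89 and 3.85 FPKM in KI libraries.

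Since high and low libraries fell in both genotypes, the genotype differences at 5 weeks were small beside their errors. On the log2 scale *Nrgn* differed by -0.01 (SE 1.37), *Tcf7l2* by 0.12 (SE 0.910) and *Sst* by 0.23 (SE 0.983). Leaving out WT replicate 1 or another single library moved the *Nrgn* value between -1.17 and 1.22. *Camk2a* took part weakly, at 33.0, 24.4 and 19.3 FPKM in WT and 26.5, 18.8 and 20.0 FPKM in KI libraries.

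*Prkcd*, *Ntng1* and *Th* did not share that order. *Prkcd* ranged over 1.18-fold among the 6 libraries, from 23.0 to 27.0 FPKM, and *Ntng1* over 1.14-fold, from 6.43 to 7.34 FPKM. *Th* was at 3.23, 2.21 and 2.99 FPKM in WT and at 3.37, 2.67 and 2.07 FPKM in KI libraries, so that KI replicate 1 was its highest and KI replicate 3 its lowest library. None of the 8 genes had genotypes apart in this table, as 9.58% of the 13341 genes tested had.

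Genes outside the set followed the same libraries. A list of 8 midbrain genes, among them *Gata2*, *Gata3*, *Tal1*, *Pax7*, *Pou4f2*, *Sox14* and *Slc17a6*, ranged in summed level from 7.83 to 29.6 FPKM in the WT and from 9.42 to 25.3 FPKM in the KI libraries at 5 weeks. At that age 7 of the 8 genes were highest in WT replicate 1, and 6 of the 8 were lowest in WT replicate 3. At 12 weeks the summed level was 21.0 to 49.5 FPKM in WT and 7.58 to 9.98 FPKM in KI libraries. Most of the sum at either age was *Slc17a6*. All 8 genes were highest in WT replicate 1 at 12 weeks. For 7 of the 8 the KI libraries lay below every WT library, with *Gata2* as the exception. Genotypes did not overlap for 32.1% of all genes tested in that table, and only 2 of the 8 passed the filter there.

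*Slc17a6* encodes the vesicular glutamate transporter VGLUT2 of midbrain, thalamic and brainstem neurons. It was at 24.4, 9.61 and 6.55 FPKM in WT and 20.8, 7.70 and 16.3 FPKM in KI libraries at 5 weeks, with WT replicate 1 and KI replicate 1 highest and WT replicate 3 and KI replicate 2 lowest, as for *Nrgn*. At 12 weeks it was at 41.1, 17.5 and 23.7 FPKM in WT and at 6.01, 6.81 and 8.04 FPKM in KI libraries, -1.88 on the log2 scale (SE 0.278, limma, adjusted p = 0.0126). *Pou4f2*, a transcription factor of collicular projection neurons, was at 1.24, 0.615 and 0.9749 FPKM in WT and at 0.014, 0.00569 and 0.0888 FPKM in KI libraries at 12 weeks. *Shox2*, a transcription factor listed for the thalamus, was at 5.84, 2.98 and 4.12 FPKM in WT and at 0.103, 0.0278 and 0.239 FPKM in KI libraries. At 5 weeks *Shox2* was at 4.84, 0.817 and 0.0123 FPKM in WT and at 3.90, 0.0174 and 2.62 FPKM in KI libraries, near 0 in the same WT replicate 3 and KI replicate 2 in which *Nrgn* was lowest.

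Of 47 genes in 5 lists for forebrain, thalamus, midbrain, monoaminergic nuclei, and pons and medulla, 46 were in the tables, and 9 passed the filter in the KI cerebellum at 12 weeks. Among all genes tested there, 5.75% were called, 3.68% as lower and 2.07% as higher. Of the 9, 2 were called lower and 0 higher, namely *Slc17a6* and the signalling regulator *Rgs16* (-0.47 on the log2 scale, SE 0.0935, limma, adjusted p = 0.0321). The median log2 fold change of the 9 was -0.18, and that of all genes tested was 0.01. The filter asks for 0.5 FPKM in both genotypes and so removed genes near 0 in KI libraries. Without it, 9 of 46 were called lower and 0 higher, beside 487 lower and 195 higher of all 18451 genes. Of the 9, 5 are from the midbrain list (*Gata3*, *Pou4f2*, *Slc17a6*, *Sox14* and *Tal1*), 2 from the thalamus list (*Shox2* and *Rgs16*) and 2 from the forebrain list (*Icam5* and *Emx2*). Apart from *Slc17a6* and *Rgs16*, these genes had KI means below 0.5 FPKM and entered only without the filter. The lists were also chosen with earlier results of these data known, so nothing is read from the unfiltered count. In the KI cerebellum at 5 weeks limma called 0 of the 12 listed genes that passed the filter, beside 0.0075% of all genes called. At an unadjusted p below 0.05 were 0 of the 12, beside 496 of all 13341 genes. The Tg cerebellum had 0 of 15 called at 5 weeks and 0 of 17 at 12 weeks, with 0 and 5 at an unadjusted p below 0.05 by limma. Of all genes tested, 4.16% and 7.58% were called, and 1939 of 13325 and 3171 of 13465 had such an unadjusted p.

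Genes of the forebrain list were mixed. *Icam5*, a neuronal adhesion gene, was at 1.40, 0.847 and 0.912 FPKM in WT and at 0.301, 0.286 and 0.317 FPKM in KI libraries at 12 weeks. Of the 11 listed forebrain genes in the table, 3 had KI libraries below every WT library and 1 had them above. Genotypes did not overlap for 32.1% of all genes tested there, so nothing is read from these counts. The forebrain gene *Fezf2* stayed below 0.1 FPKM in all 24 cerebellum libraries, and another forebrain gene, *Neurod6*, was at 3.36, 3.89 and 3.56 FPKM in WT and 3.74, 4.17 and 3.51 FPKM in KI libraries at 12 weeks, with overlapping genotypes. The summed level of 12 pons and medulla genes was at most 0.589 FPKM in the KI cerebellum at 5 weeks and reached 12.8 FPKM in WT replicate 1 at 12 weeks. There the medullary patterning genes *Hoxa5* and *Hoxb5* were at 2.66 and 2.88 FPKM, against at most 0.0531 FPKM in the other WT libraries and at most 0.559 FPKM in KI libraries. *Nrgn*, *Tcf7l2* and *Sst* were also highest in that library, and the part of medullary tissue in their values was not tested.

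**Figure D2:**
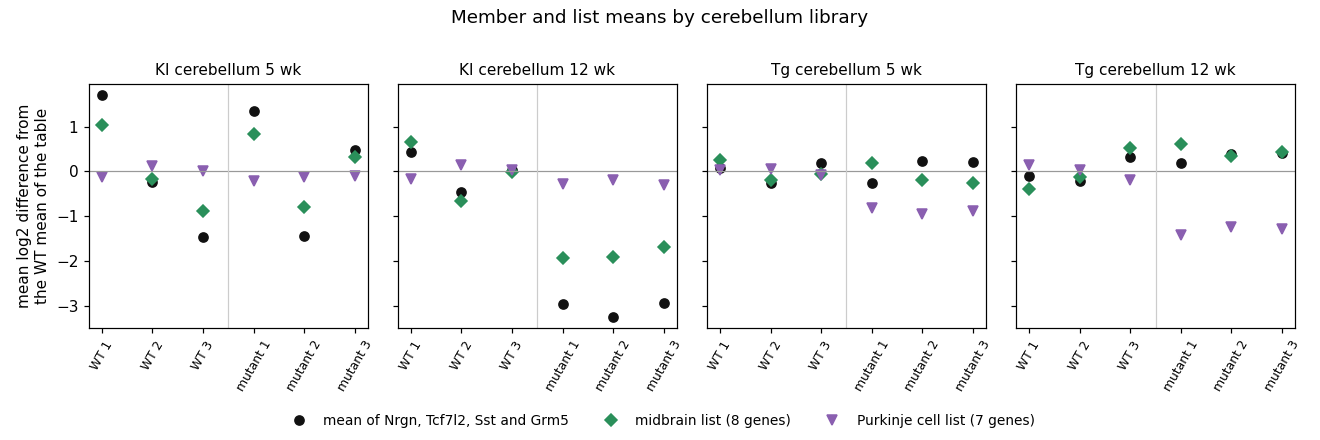
Mean log2 difference from the WT mean of the table for *Nrgn*, *Tcf7l2*, *Sst* and *Grm5* together (black), for the 8 midbrain genes (green) and for the 7 Purkinje cell genes (purple), with 1 panel per cerebellum table and 1 position per library. Black and green points rise and fall together across KI libraries of both ages, and the purple points leave 0 mainly in Tg mutants.

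Set against the mean of its group, each library's value of the 4 leading genes could be compared with the lists. Over the 24 cerebellum libraries the mean of *Nrgn*, *Tcf7l2*, *Sst* and *Grm5* had a Pearson correlation of 0.883 (Spearman 0.704) with the mean of the midbrain list. It was 0.957 over the 12 KI libraries and 0.227 over the 12 Tg libraries, and 0.801 over all without the 2 libraries farthest from the median. The thalamus list, with *Shox2*, gave 0.945, the forebrain list 0.609, the monoaminergic list 0.183 and the pons and medulla list 0.132. No monoaminergic or pons and medulla gene passed the filter in a cerebellum table, so the values of these lists rest on low levels. Of the inferior olive neuron genes only *Cacna1g* passed the filter in every cerebellum table. That list gave 0.775, the granule cell list -0.669, the Purkinje cell list -0.428, the interneuron list -0.254 and the choroid plexus list -0.0885. The larger of these values came from the KI libraries, with 0.979 in KI and 0.177 in Tg libraries for the thalamus list, 0.714 and -0.12 for the forebrain list, 0.887 and -0.072 for the inferior olive neuron list and -0.753 and 0.0188 for the granule cell list. These are descriptions of libraries that share tables and depth. At 5 weeks the high and low libraries occurred in both genotypes. At 12 weeks the midbrain list was low in the 3 KI libraries alone, so in that table the tissue collected and the genotype cannot be told apart for these genes.

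In the Tg cerebellum the 4 leading genes did not differ between genotypes in the way they did in KI mice. At 5 weeks *Nrgn* was at 40.4, 31.2 and 46.8 FPKM in WT and at 32.0, 50.0 and 51.0 FPKM in Tg libraries, 0.16 higher on the log2 scale (SE 0.193). At 12 weeks it was at 52.0, 43.6 and 57.5 FPKM in WT and at 48.6, 65.5 and 56.1 FPKM in Tg libraries, 0.15 higher on the log2 scale (SE 0.128). The 6 libraries of a Tg table spanned 1.63-fold and 1.503-fold in *Nrgn*, against 29.2-fold and 27.0-fold in the KI tables. *Sst* ran from 17.7 to 29.0 FPKM at 5 weeks and *Tcf7l2* from 9.22 to 14.7 FPKM, with genotypes mixed in both.

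At 12 weeks *Grm5* was higher in Tg libraries, at 4.51, 4.68 and 6.56 FPKM in WT and 7.34, 7.01 and 7.42 FPKM in Tg mice, 0.48 higher on the log2 scale (SE 0.137). *Sst* pointed the same way, at 24.5, 25.7 and 38.4 FPKM in WT and at 39.0, 37.5 and 39.7 FPKM in Tg libraries, but the genotypes overlapped. WT replicate 3 was the highest WT library for both genes, and without it their log2 fold changes were 0.65 for *Grm5* and 0.63 for *Sst*. The midbrain list moved with them, with summed levels of 24.8 to 38.7 FPKM in WT and 39.5 to 45.4 FPKM in Tg libraries. Of that list, *Slc17a6* had genotypes apart, with 20.0, 19.9 and 29.3 FPKM in WT and 31.8, 30.9 and 36.9 FPKM in Tg libraries (log2 fold change 0.54, limma, adjusted p = 0.0693). The part of the midbrain genes in the *Grm5* value was not tested.

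*Camk2a* and *Th* were lower in Tg than in WT cerebellum at both ages. *Camk2a* was at 32.3, 28.9 and 29.7 FPKM in WT and at 21.4, 23.4 and 23.6 FPKM in Tg libraries at 5 weeks, and at 36.2, 35.9 and 37.0 FPKM in WT and at 23.0, 26.8 and 24.8 FPKM in Tg libraries at 12 weeks. Its log2 fold changes were -0.41 (SE 0.0541) and -0.55 (SE 0.0633), with no overlap at either age. *Th* was at 2.38, 2.01 and 1.94 FPKM in WT and at 1.46, 1.26 and 1.18 FPKM in Tg libraries at 5 weeks. At 12 weeks *Th* was at 3.11, 2.68 and 2.27 FPKM in WT and at 1.65, 1.61 and 2.06 FPKM in Tg libraries. The WT and Tg libraries of both genes stayed apart although *Nrgn*, *Tcf7l2* and *Sst* overlapped in the same libraries.

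The 7 Purkinje cell genes moved with genotype in these tables and were all called lower at both ages. Their summed level was 2332 to 2531 FPKM in WT and 1290 to 1436 FPKM in Tg libraries at 5 weeks, and 2141 to 2689 FPKM in WT and 984 to 1090 FPKM in Tg libraries at 12 weeks. In the KI cerebellum at 12 weeks, where *Camk2a* and *Th* were lower together with *Nrgn*, the same sum was 2341 to 2838 FPKM in WT and 2097 to 2263 FPKM in KI libraries, and 1 of the 7 genes, *Pcp2*, was called lower. How much of the *Camk2a* and *Th* differences belongs to Purkinje cells was not tested.

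*Ntng1* went the other way in Tg mice, at 8.72, 8.28 and 8.69 FPKM in WT and at 9.93, 10.6 and 10.8 FPKM in Tg libraries at 5 weeks, 0.28 higher on the log2 scale (SE 0.0494). At 12 weeks its libraries overlapped, at 7.88, 7.28 and 9.55 FPKM in WT and 9.49, 10.47 and 10.2 FPKM in Tg mice. *Prkcd* was at 33.4, 35.5 and 35.4 FPKM in WT and at 28.5, 28.9 and 29.99 FPKM in Tg libraries at 5 weeks, and overlapped at 12 weeks. Genotypes did not overlap for 4 of the 8 genes at 5 weeks and 3 of the 8 at 12 weeks, beside 20.2% and 29.4% of all genes tested.

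**Figure D3:**
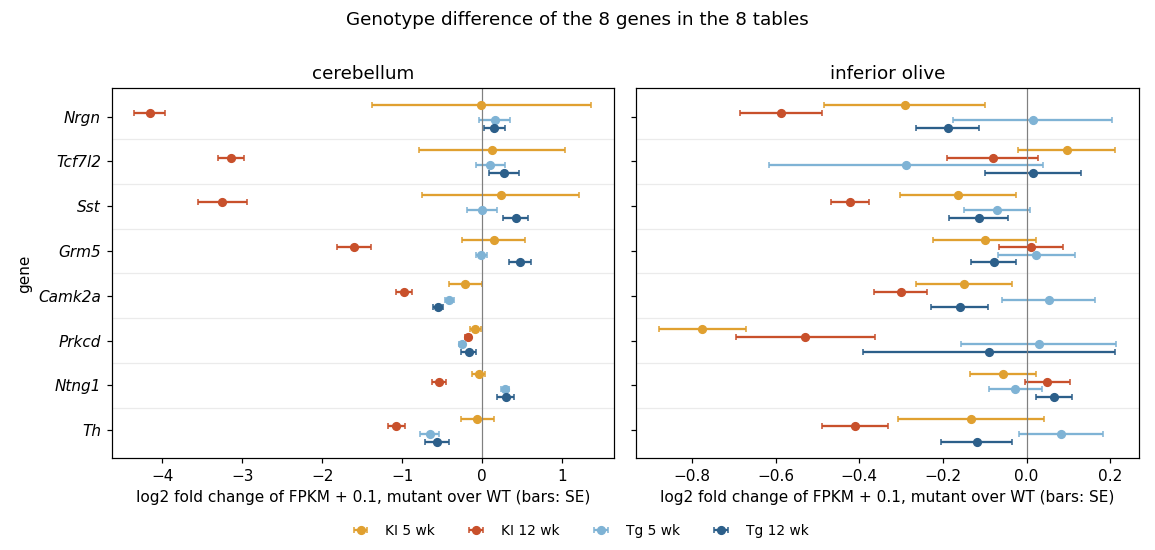
Log2 fold change of FPKM + 0.1, mutant over WT, for the 8 genes in cerebellum (left) and inferior olive (right), with standard errors as bars and 1 colour per model and age, on x axes of different width. The KI cerebellum at 12 weeks stands at -4.16 to -0.98 for *Nrgn*, *Tcf7l2*, *Sst*, *Grm5*, *Camk2a* and *Th*, and the bars of *Nrgn*, *Tcf7l2*, *Sst* and *Grm5* are widest in the KI cerebellum at 5 weeks.

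The inferior olive, a nucleus of the medulla, had another profile of the 8 genes. They were proposed for their cerebellum values, but earlier results of the olive tables were known too, so the olive tests are not fully independent of the choice. *Sst* was its most abundant member, between 106 and 208 FPKM over the 24 libraries, and *Grm5* ran from 11.5 to 15.9 FPKM. *Tcf7l2* stayed between 1.38 and 2.08 FPKM in 23 libraries and was at 4.21 FPKM in WT replicate 1 of the Tg table at 5 weeks. *Nrgn* ranged from 8.59 to 24.4 FPKM, and its highest library was that same WT replicate 1. *Ntng1* lay between 9.78 and 12.7 FPKM, and *Th* between 3.21 and 5.55 FPKM.

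In the KI inferior olive at 12 weeks 3 of the 8 genes, *Nrgn*, *Sst* and *Th*, were called lower and 0 higher. Of the 13832 genes tested there, 1.53% were called, 1.27% as lower and 0.26% as higher. *Sst* was at 164, 149 and 146 FPKM in WT and at 116, 114 and 112 FPKM in KI libraries, -0.42 on the log2 scale (SE 0.0462, limma, adjusted p = 0.00639). *Nrgn* was at 12.4, 14.9 and 15.1 FPKM in WT and at 10.6, 8.59 and 8.92 FPKM in KI libraries, -0.59 on the log2 scale (SE 0.0983, limma, adjusted p = 0.0312). *Th* was at 5.04, 4.44 and 4.61 FPKM in WT and at 3.61, 3.71 and 3.21 FPKM in KI libraries, -0.41 on the log2 scale (SE 0.0783, limma, adjusted p = 0.0496). All 3 had every KI library below every WT library. The *Sst* call stood without any 1 library, the *Nrgn* call was lost without WT replicate 2 or 3 or KI replicate 2 or 3, and the *Th* call was lost without any 1 of the 6 libraries, with adjusted p of 0.1003 to 0.164. Over all alternatives tried the adjusted p ran from 0.0057 to 0.041 for *Sst*, from 0.0209 to 0.143 for *Nrgn* and from 0.0473 to 0.164 for *Th*. With the replicate number as a block, of these 3 only *Sst* stayed called, with an adjusted p of 0.0181 beside 0.0976 for *Nrgn* and 0.102 for *Th*.

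*Camk2a* had genotypes apart in the same table, at 22.01, 24.9 and 22.4 FPKM in WT and at 20.01, 18.6 and 17.6 FPKM in KI libraries, without being called (log2 fold change -0.30, adjusted p = 0.0687). With it, 4 of the 8 genes had genotypes apart, beside 19.2% of all genes tested. *Tcf7l2*, *Grm5* and *Ntng1* had log2 fold changes of -0.08, 0.01 and 0.05, and the 95% interval of *Grm5* was -0.17 to 0.19. Genes of inferior olive neurons moved in the same libraries, since all 4 of that list (*Htr5b*, *Crh*, *Pou4f1* and *Cacna1g*) were called lower with a median log2 fold change of -1.10. So did serotonin neuron genes, with *Tph2* at -0.71 (limma, adjusted p = 0.00313) and *Slc6a4* at -0.73 (limma, adjusted p = 0.0322). Genes of other lists were also called lower, beside 1.27% of all genes tested. They were 2 of 5 tested forebrain, 1 of 7 Purkinje cell, 1 of 5 granule cell and 1 of 8 interneuron genes. Of the thalamus, midbrain, and pons and medulla lists 0 were called. The part of any of these cell groups in the *Sst*, *Nrgn* and *Th* values was not tested.

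*Prkcd* was the member with the largest difference in the KI inferior olive at 5 weeks, at 7.81, 9.60 and 8.40 FPKM in WT and at 5.08, 4.53 and 5.32 FPKM in KI libraries. Its log2 fold change was -0.78 (95% interval -1.02 to -0.53), which missed the threshold after adjustment (adjusted p = 0.133). At 12 weeks it was at 6.88, 10.02 and 10.6 FPKM in WT and at 6.61, 5.27 and 6.91 FPKM in KI libraries, which overlapped (log2 fold change -0.53, adjusted p = 0.207). WT replicate 1 was the low WT library, and without it the 12 week value was -0.72 with an adjusted p of 0.0323, while under the other alternatives it ran from 0.203 to 0.515. By limma 0 of the 8 genes were called in the KI inferior olive at 5 weeks, beside 0.0146% of 13654 genes. At an unadjusted p below 0.05 was 1 of the 8, beside 825 of all genes. *Prkcd* was also the only member with genotypes apart there, beside 11.9% of all genes tested.

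**Figure D4:**
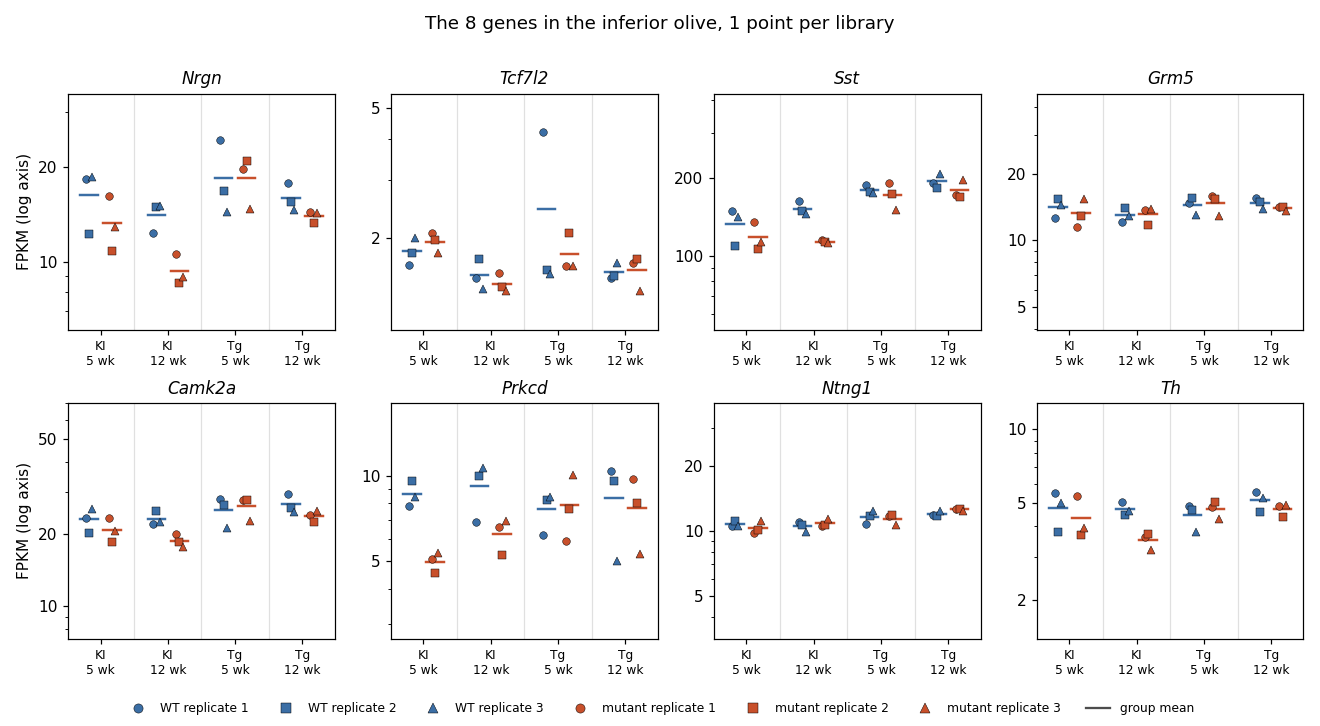
FPKM of the 8 genes in the 24 inferior olive libraries on log axes, with 1 panel per gene, the 4 tables along the x axis, WT in blue, mutants in orange, marker shapes for replicates 1 to 3 and bars at group means. *Sst*, *Nrgn*, *Th* and *Camk2a* have KI libraries below all WT libraries at 12 weeks, *Prkcd* has them at 5 weeks, and *Tcf7l2* has a lone WT library at 4.21.

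In the Tg inferior olive 0 of the 8 genes were called by limma at either age, beside 0.0% of 13708 and 13726 genes. At an unadjusted p below 0.05 were 0 and 2 of the 8, beside 902 and 474 of all genes. The 2 were *Nrgn* at 12 weeks, at 17.9, 15.6 and 14.6 FPKM in WT and 14.4, 13.3 and 14.3 FPKM in Tg libraries, and *Camk2a* with a log2 fold change of -0.16. *Sst* was at 192, 183 and 208 FPKM in WT and at 173, 170 and 197 FPKM in Tg libraries, a log2 fold change of -0.11 with a 95% interval of -0.28 to 0.05. Genotypes did not overlap for 0 of the 8 genes at 5 weeks and for 2 at 12 weeks, beside 12.0% and 7.58% of all genes. By limma's interaction term no difference of the genotype effect between 5 and 12 weeks was called for the 8 genes in the inferior olive of either model. The same held for all genes, with 0 of 13241 called in KI and 0 of 13274 in Tg mice. Of the 8, 0 were below an unadjusted p of 0.05 in each model, beside 672 of all genes in KI and 858 in Tg mice. Their differences ran from -0.30 (SE 0.241) for *Nrgn* in KI mice to 0.30 (SE 0.398) for *Tcf7l2* in Tg mice.

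Genes of the same pathways and families were tested beside the 8. In the KI cerebellum at 12 weeks 29 of 36 other family members were tested. Of these, 17 had an unadjusted p below 0.05 by limma, beside 3245 of all 13284 genes. Called were 3 as lower and 3 as higher, beside 5.75% of all genes. The lower ones were the somatostatin receptor *Sstr1* (log2 fold change -1.31, adjusted p = 0.0123), the dopa decarboxylase *Ddc* (-0.59, limma, adjusted p = 0.0129) and *Pcp4* (-0.64, adjusted p = 0.00146), a small calmodulin-binding protein of Purkinje cells. *Sstr1* was at 2.15, 1.07 and 0.937 FPKM in WT and 2.19, 0.938 and 1.39 FPKM in KI libraries at 5 weeks, with WT replicate 1 and KI replicate 1 high as for *Sst*. The higher ones were *Sstr3* (log2 fold change 0.39) and the kinases *Prkce* (0.27) and *Prkci* (0.22). At 5 weeks 0 of 30 were called by limma. An unadjusted p below 0.05 was reached by 4 of them, beside 496 of all 13341 genes.

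Among CaMKII subunits, *Camk2b*, the beta subunit, was at 147, 169 and 181 FPKM in WT and at 162, 150 and 156 FPKM in KI libraries at 12 weeks, without a call. *Camk2g* was at 55.5, 41.1 and 48.6 FPKM in WT and at 36.0, 36.8 and 38.5 FPKM in KI libraries (log2 fold change -0.37, adjusted p = 0.0693). In the Tg cerebellum at 12 weeks *Camk2b* was called lower (log2 fold change -0.45, adjusted p = 0.00987) beside the -0.55 of *Camk2a*. The scaffold gene *Homer3*, abundant in Purkinje cells, was called lower in Tg mice at both ages, at -1.07 and -1.57 on the log2 scale, while *Grm5* overlapped at 5 weeks and was higher at 12. The netrin-G2 gene *Ntng2* was called higher in Tg cerebellum at 12 weeks (log2 fold change 0.55, adjusted p = 0.00231). In all, 4 of 29 other family members were called lower and 0 higher in Tg mice at 5 weeks, and 5 of 31 lower and 1 higher at 12 weeks. Of all genes, 4.16% of 13325 were called at 5 weeks, 3.73% as lower and 0.428% as higher, and 7.58% of 13465 at 12 weeks, 5.29% as lower and 2.29% as higher. In the inferior olive 3 of 32 were called lower in KI mice at 12 weeks, which were *Pcp4*, *Lrrc4b* and the vesicular monoamine transporter *Slc18a2*.

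Within groups the 8 genes differed in how closely they followed each other. Over the 24 cerebellum libraries, each set against its group mean, the correlation with the mean of the other 7 was 0.981 for *Sst*, 0.9701 for *Tcf7l2*, 0.945 for *Nrgn*, 0.908 for *Grm5* and 0.883 for *Camk2a*. It was 0.215 for *Th*, 0.104 for *Ntng1* and -0.0127 for *Prkcd*. The models differed in this, since *Ntng1* had 0.760 in the 12 Tg and -0.00441 in the 12 KI libraries, while *Grm5* had 0.618 and 0.931. In the inferior olive the same measure was 0.855 for *Nrgn*, 0.822 for *Camk2a*, 0.453 for *Th*, 0.288 for *Tcf7l2*, 0.244 for *Sst*, 0.171 for *Grm5*, -0.277 for *Prkcd* and -0.363 for *Ntng1*. These correlations rest on libraries that share tables and depth and are given as descriptions.

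Of 12315 other genes compared in this way with the mean of the 8, the most alike were *Cpne6* (r = 0.979), *Camkv*, *Enc1*, *Ldb2*, *Kcnc2*, *Ndst4*, *Asic4*, *6330403K07Rik*, *Pak6* and *Cnih3* (r = 0.954), where the median gene had r = 0.0241. The first 2 encode a calcium-binding protein and a kinase-like protein of neurons, and *Kcnc2* encodes the potassium channel Kv3.2. In the 12 KI libraries alone the 10 genes had r of at least 0.957, and in the 12 Tg libraries the lowest was 0.444. The list depended on the libraries and the measure used, since 9 of the 10 were again among the 10 highest without the 2 farthest libraries, 6 in KI libraries alone, 3 in Tg libraries alone and 3 by Spearman correlation. Of the listed genes, *Slc17a6* ranked 18 and *Sstr1* ranked 23.

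Promoter windows of 250 bases before a RefSeq transcript start were at hand for 6 of the 8 genes. They were searched for TGACGTCA, the cAMP response element, which reads the same on both strands. It was found in the windows of *Sst* and *Th* and in 1.55% of all 32851 windows. Both are shown because they share these letters while, within groups, their levels followed each other little in the cerebellum. Between genotypes both were lower in the KI cerebellum at 12 weeks. Both are on the minus strand of GRCm38.p6, printed 5′ to 3′ in the direction of the gene with the element in capitals, *Sst* at chr16:23890845-23891094 and *Th* at chr7:142899996-142900245.
Sst: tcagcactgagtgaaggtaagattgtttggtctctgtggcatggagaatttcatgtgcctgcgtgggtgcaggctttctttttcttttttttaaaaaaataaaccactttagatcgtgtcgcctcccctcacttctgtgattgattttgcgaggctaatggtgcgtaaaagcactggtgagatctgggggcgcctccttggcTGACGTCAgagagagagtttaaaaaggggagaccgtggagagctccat
Th: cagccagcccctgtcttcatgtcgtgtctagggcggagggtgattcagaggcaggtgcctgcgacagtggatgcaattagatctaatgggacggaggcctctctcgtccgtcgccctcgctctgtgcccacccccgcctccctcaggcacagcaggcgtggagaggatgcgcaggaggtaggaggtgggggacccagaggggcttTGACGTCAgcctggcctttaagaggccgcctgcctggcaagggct
The element ends 40 bases before the start of *Sst* and 37 bases before that of *Th*. In the cerebellum libraries the correlation of *Sst* and *Th*, each set against its group mean, was 0.253, with 0.413 in KI and -0.519 in Tg libraries. In the inferior olive it was 0.820, with 0.955 in KI and 0.551 in Tg libraries. A match of letters is a description of the window and says nothing of which factors were bound in these mice.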

How the data were processed

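Poly-A RNA of cerebellum and inferior olive was sequenced as paired ends. Per the labels and the study's methods, the authors aligned reads to mm10 with TopHat2 2.1.0 and estimated transcripts with Cufflinks 2.2.1. They deposited FPKM values per library that Cuffnorm had normalized within each of the 8 tables. The group averages and the columns of the authors' own comparison (log2 fold change, p and q) were not used.

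Each table was fitted on its own with limma 3.58.1 in R 4.3.3, with a mean-variance trend, on log2(FPKM + 0.1), so folds of low genes are understated. Genes needed a mean of 0.5 FPKM in both genotypes, and the entry with the highest mean was kept where a symbol occurred more than once. Entries without a symbol, 9.16% to 13.1% of a table, were left out. Other steps used Python 3.11.15. FPKM carry no read counts, so depth is known only as a ratio within a table.

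The 8 genes and all gene lists were chosen with earlier results of these data known. Named genes were the 8, the listed genes called in a table or with the largest differences, and the 10 genes most alike. Some listed genes are not reported by name here. *Neurod6*, *Fezf2*, *Hoxa5*, *Hoxb5*, *Icam5*, *Shox2* and *Pou4f2* were named after their values were seen, as were *Camk2g* and the unfiltered calls. The replicate numbers pair no mice in the labels. On simulated tables limma recovered 84.0% to 97.2% of genes changed by 1 on the log2 scale, with 2.11% to 8.29% of its calls on unchanged genes, and made 0 calls where no gene was changed. The simulated noise was drawn separately for each gene. It held no shift shared by many genes of a library, as the KI cerebellum libraries show, so these rates do not cover such shifts. With 3 against 3 libraries an exact permutation test cannot go below 0.1, so the values of single genes rest on limma. Another pseudocount, filters, no trend, equal library medians, a replicate block and leaving out each library were tried.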

Additional observations from a re-analysis of the deposited data

Results flagged for a closer look

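*Grm5* moved in opposite directions in the 12 week cerebellum of the 2 models. Its log2 fold change was -1.61 in KI mice, where every mutant library was below every WT library, and 0.48 in Tg mice, where every mutant library was above every WT library. The difference between the models was not tested, since the tables were normalized separately and the cerebellum values chose the gene. In the same libraries the summed level of the 8 midbrain genes, most of it *Slc17a6*, was also lower in KI mice and higher in Tg mice. Its part in the *Grm5* values was not tested.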

How the results depend on the processing

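In the KI cerebellum at 12 weeks all 8 genes were lower in KI mice under every alternative tried, and the leave-one-out ranges are given with them. With a pseudocount of 1 the KI values at 12 weeks shrank to -3.79 for *Nrgn*, -2.61 for *Tcf7l2*, -1.27 for *Grm5* and -0.84 for *Th*. In the KI cerebellum at 12 weeks 764 genes were called, 434 without the mean-variance trend and 104 (without KI replicate 1) to 1226 (without WT replicate 1) when 1 library was left out. At 5 weeks 1 was called, 0 with no filter, with the filter in either genotype, without the trend or with equal medians, and 0 to 1 without 1 library. The Tg cerebellum had 554 (372 to 482 without 1 library) at 5 weeks and 1021 (434 without WT replicate 1 to 975) at 12 weeks. The KI inferior olive had 2 at 5 weeks (0 to 18 without 1 library) and 211 at 12 weeks, 97 without the trend and 40 to 160 without 1 library. The Tg inferior olive had 0 at both ages (0 to 2 and 0 to 1 without 1 library), and 1 with no filter at 12 weeks. Of the 8 genes, 3 were called in the KI inferior olive at 12 weeks, 1 with no filter or without the trend, and 1 to 3 without 1 library. Of the neighbour genes 2 were called in the KI cerebellum at 12 weeks, 9 with no filter, 8 with the filter in either genotype, 1 without the trend and 0 to 2 without 1 library, and 0 in the Tg cerebellum at 12 weeks, with 0 to 3 without 1 library. The cause was not tested.

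With the replicate number as a block, 291 genes were called in the KI cerebellum at 12 weeks, 7 at 5 weeks and 85 at 12 weeks in the KI inferior olive, and 3 and 4 in the Tg inferior olive. Of the 8 genes 1 (*Sst*) was called at 12 weeks in KI olives, and of the neighbour genes 1 in the KI and 2 in the Tg cerebellum at 12 weeks. Same-numbered libraries correlated from -0.366 to 0.507, with the highest value for replicate 1 of the KI cerebellum at 5 weeks. In that table the block left 1 gene called. It raised the genes at an unadjusted p below 0.05 by limma from 496 to 982. Every pair passed 0.1 in 1 of the 8 tables, the Tg inferior olive at 12 weeks (3 of 3 best with their own number). Whether same-numbered libraries shared more than a number was not tested.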

Other observations

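Single libraries stood out in genes of monoaminergic and medullary neurons. In the Tg cerebellum at 12 weeks the serotonin genes *Tph2* and *Slc6a4* were at 5.63 and 4.08 FPKM in Tg replicate 1, where the other 5 libraries had 0.242 to 0.541 FPKM of *Tph2*. *Ddc*, which acts after *Th* in catecholamine synthesis and also makes serotonin, was at 6.54 FPKM in that library and at 2.47 and 2.68 FPKM in the other Tg libraries, while *Th* there was at 1.65 FPKM. In the Tg cerebellum at 5 weeks *Hoxa5* and *Hoxb5* were at 0.492 and 0.570 FPKM in Tg replicate 2, against at most 0.0859 and 0.0708 FPKM in the other 5 libraries.

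*Th* and the Purkinje cell list were related differently in the models. With each library set against its group mean, their correlation was -0.817 over the 12 KI and 0.635 over the 12 Tg cerebellum libraries, given as a description.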
